A study of Pagiophloeus tsushimanus with 15 samples.

Results

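The unigenes described here are those of the weevil Pagiophloeus tsushimanus whose protein description names a larval storage protein or a lipid carrier of the blood. They were taken from a table of 34486 assembled unigenes by the words hexamerin, arylphorin, vitellogenin or apolipophorin in the description, leaving out receptors, and the 10 with the highest mean level over all libraries were kept of 12 that matched. Of the 10 members, 6 are described as arylphorins and 4 as vitellogenins, while 0 rows of the table used here matched hexamerin and 0 matched apolipophorin, so the only candidates for lipid carriers are the vitellogenin rows. The members were thus chosen by their mean level in these same libraries, so the levels below are a description. Only 4 members, all arylphorins, reached a mean of at least 1 TPM (a transcript level normalised for length and library total) and entered the tests.

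RNA was sequenced from whole larvae in 15 libraries, 3 for each of 5 diets. The treatment label of untreated larvae says nothing more about their diet. The other groups fed on food holding either 10 or 30 mg/g of what the labels call EO, or 17 or 41 mg/g of D-camphor. D-camphor is a plant monoterpenoid ketone. The labels used here give neither the age of the larvae nor whether a replicate was 1 animal or a pool, so p-values measure only the spread between these libraries. TPM keeps no read depth, so counting precision is unknown.

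Arylphorins are hexamerins rich in aromatic amino acids, members of the arthropod hemocyanin family that bind no oxygen. In insects in general, the fat body makes them during larval growth and releases them into the haemolymph, where they build up before metamorphosis and are later used as a reserve of amino acids. Vitellogenins are yolk protein precursors and large lipid transfer proteins, made mainly by the fat body of adult females. Apolipophorins form the lipoprotein particle that carries lipid through the haemolymph.

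None of the 4 abundant arylphorins passed the test for a difference between diets. In limma's moderated tests with Benjamini-Hochberg adjustment over all 12510 tested unigenes, 0 of 4 members were called at an adjusted p under 0.05 in each of 9 comparisons, and 1 of these 36 tests had an unadjusted p under 0.05. The background was also low. The share of all tested unigenes called was 0.0719% on EO at 10 mg/g, 0.184% on EO at 30 mg/g, 0.04% on D-camphor at 17 mg/g and 0.016% on D-camphor at 41 mg/g, each against untreated larvae. It was 0.0879% for the mean of the 4 treated diets, 0.00799% between the EO doses and 0% between the D-camphor doses. It was 0% for the difference between these dose steps and 0.0719% for any difference among the diets. Between the D-camphor doses and for the difference between the steps, limma called 0 unigenes, while 1190 and 1448 of all those tested had an unadjusted p under 0.05. A count of 0 of 4 is near these shares and says nothing particular about the members.

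Libraries of the same diet differed widely from each other. Replicate 1 of each EO dose, together with replicate 2 of D-camphor at 41 mg/g, lay highest on the first principal component of all tested unigenes, which held 23.5% of the variation. These 3 libraries also had the highest summed level of 73 unigenes described as cuticle proteins, of which 56 were tested and 0 were at 0 in all libraries. That sum was 4252 to 8010 TPM in untreated larvae, 6173 to 93015 on EO at 10 mg/g, 13907 to 58035 on EO at 30 mg/g, 10899 to 29269 on D-camphor at 17 mg/g and 10907 to 57290 on D-camphor at 41 mg/g. The cuticle sum lay above untreated larvae on every other diet except EO at 10 mg/g, which overlapped with them. Muscle markers (38 unigenes) summed to between 11250 and 20010 TPM and gut markers (37) to between 11625 and 19011. The gut sum was 14280 to 18048 TPM in untreated larvae. It lay below that on D-camphor, at 11625 to 14021 TPM at 17 mg/g and 12624 to 13946.5 at 41 mg/g, while both EO diets overlapped with untreated larvae. Fat body markers other than the members (7 unigenes) were found by the words fat body protein, transferrin, glycogen phosphorylase and glycogen synthase. They summed to between 123 and 836 TPM, both extremes being untreated libraries. Only 4 of them were tested, and transferrin rows, led by TRINITY_DN9498_c0_g1 (mean 249 TPM), make up most of the sum. It is therefore no mixed measure of the fat body, and its transferrin rows are also in the haemolymph and fat body list below. Markers listed as germ line, by the words vasa, nanos, piwi, aubergine, vitelline and chorion (3 unigenes), summed to between 59.0 and 1287 TPM. The lowest library was untreated replicate 2 and the highest EO 10 mg/g replicate 1, which were also the extremes of the cuticle sum. Which words the 3 unigenes matched is not given here, so their sum cannot be read as germ cell content. The haemocyte words matched 0 rows. The germ line sum was 59.0 to 175 TPM in untreated larvae. It lay above that on EO at 30 mg/g (191 to 1027) and D-camphor at 17 mg/g (331 to 520), while the other diets overlapped with untreated larvae. Differences between diets in these marker sums were not tested, so ranges lying apart are a description. In whole bodies, fewer cells of a type and less RNA per cell cannot be told apart.

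TRINITY_DN37624_c1_g1, described as arylphorin-like from the rice weevil Sitophilus oryzae, was the most abundant of the storage proteins, with a mean of 1808 TPM and rank 109 of all unigenes. It stood at 2012, 1814 and 1297 TPM in untreated larvae, at 707, 3080 and 1962 on EO at 10 mg/g and at 1704, 1544 and 2729 on EO at 30 mg/g. On D-camphor it stood at 1521, 2057 and 1998 TPM at 17 mg/g and at 1470, 1361 and 1864 at 41 mg/g. All diets overlapped with untreated larvae, and both the lowest and the highest library were on EO at 10 mg/g. Against untreated larvae its log2 fold changes were -0.049 (95% interval -0.98 to 0.89) and 0.20 (-0.73 to 1.13) on EO at 10 and 30 mg/g, and 0.13 (-0.80 to 1.07) and -0.11 (-1.05 to 0.82) on D-camphor at 17 and 41 mg/g. The adjusted p by limma was at least 0.903 in these, and each interval spans 0 widely on both sides.

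The second member by level, TRINITY_DN25342_c0_g1, carries the same description and had a mean of 1074 TPM. Its levels were 1494, 1062 and 835 TPM in untreated larvae, 303, 1206 and 645 on EO at 10 mg/g and 1512, 682 and 1686 on EO at 30 mg/g. They were 1078, 1430 and 880 TPM on D-camphor at 17 mg/g and 1293, 531 and 1472 at 41 mg/g. EO at 10 mg/g had the lowest mean, 718 ± 456 TPM (SD, n = 3), against 1130 ± 335 in untreated larvae, with 1 of its 3 libraries inside the untreated range. The log2 fold change there was -0.83 (SE 0.53, 95% interval -1.97 to 0.32, limma adjusted p = 0.714). It was -0.32 without replicate 1 of that diet and -1.31 without replicate 2. It was 0.13 at the higher EO dose, and 0.01 and -0.13 at the lower and higher dose of D-camphor.

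TRINITY_DN42857_c1_g1, described as AgSP-1 arylphorin, a storage protein of the boll weevil Anthonomus grandis, had a mean of 941 TPM and the widest range of the 4. Untreated larvae were close together at 584, 607 and 689 TPM. Levels on EO were 145, 1964 and 545 TPM at 10 mg/g, a 13.6-fold range within 1 diet, and 815, 606 and 2115 at 30 mg/g. On D-camphor they were 679, 1502 and 988 TPM at 17 mg/g and 1189, 478 and 1211 at 41 mg/g. The mean was lowest in untreated larvae, 627 ± 55.2 TPM, and highest on EO at 30 mg/g, 1179 ± 818, but every diet overlapped with untreated larvae. The log2 fold changes were -0.22 (95% interval -1.89 to 1.46) on EO at 10 mg/g, 0.70 (-0.98 to 2.38) on EO at 30 mg/g, 0.68 (-0.997 to 2.36) on D-camphor at 17 mg/g and 0.50 (-1.18 to 2.18) on D-camphor at 41 mg/g, with limma adjusted p of at least 0.794. On EO at 30 mg/g it was 0.17 without replicate 3 and 1.07 without replicate 2 of that diet.

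The fourth, TRINITY_DN25053_c1_g1, again described as arylphorin-like from Sitophilus oryzae, had a mean of 354 TPM and was the lowest of the 4 in all 15 libraries. It stood at 370, 244 and 251 TPM in untreated larvae, at 141, 628 and 338 on EO at 10 mg/g and at 456, 337 and 680 on EO at 30 mg/g. On D-camphor it stood at 322, 496 and 368 TPM at 17 mg/g and at 231, 203 and 239 at 41 mg/g. D-camphor at 41 mg/g was the only diet whose 3 libraries all lay on one side of untreated larvae for any of the 4 arylphorins, with 239 TPM in its highest library against 244 in the lowest untreated one. The share of all tested unigenes lying apart in this way is not given here, so the gap is a description and no mark of this diet. The means were 224 ± 18.6 TPM at 41 mg/g and 288 ± 70.7 TPM in untreated larvae, a log2 fold change of -0.34 (SE 0.43, limma adjusted p = 0.998). On EO at 30 mg/g the log2 fold change was 0.73 (95% interval -0.21 to 1.68, limma adjusted p = 0.618).

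**Figure D1:**
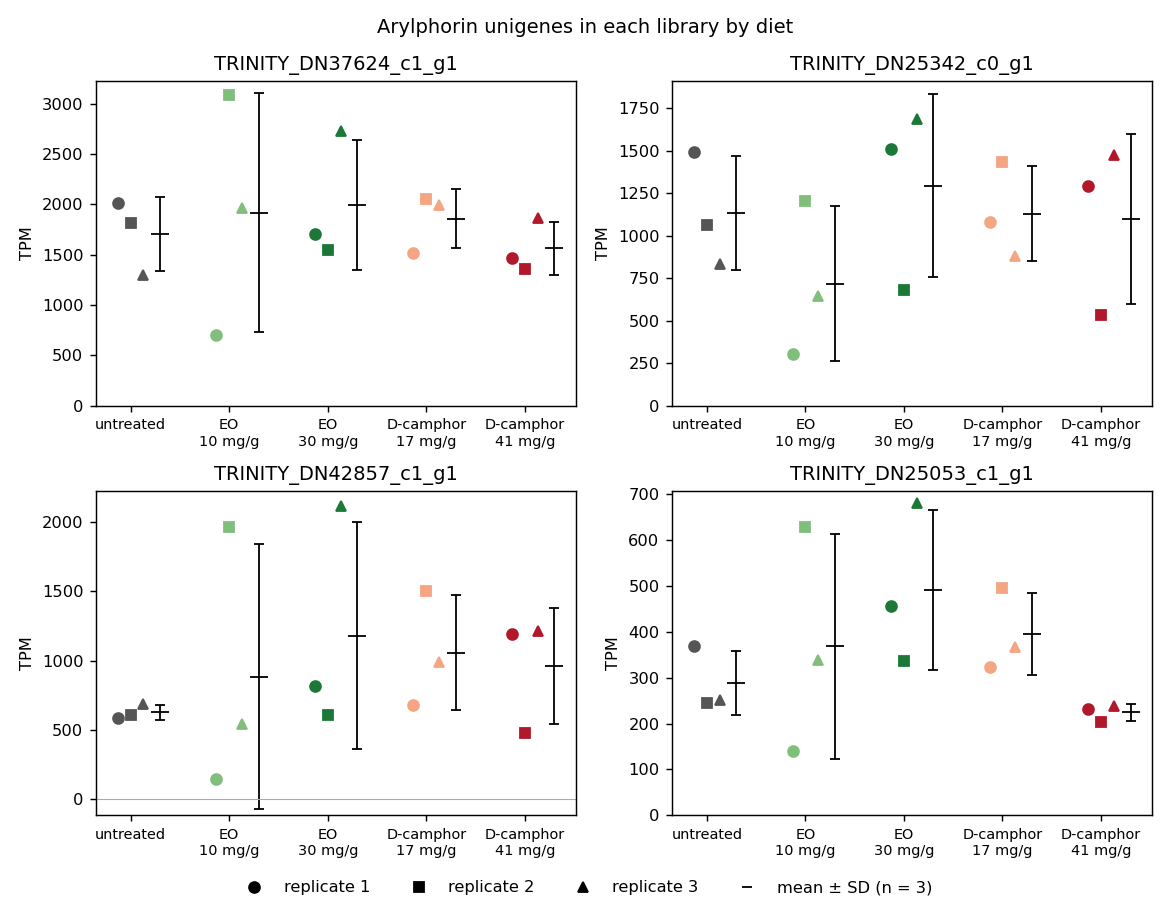
TPM of the 4 arylphorin unigenes in each library (vertical axis) by diet (horizontal axis), with the symbol giving the replicate number and the bar the mean ± SD of 3 libraries. For TRINITY_DN42857_c1_g1 the untreated libraries lie between 584 and 689 TPM while those on EO at 10 mg/g run from 145 to 1964 TPM.

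The order of the diets by mean level was not the same for the 4 arylphorins. EO at 30 mg/g had the highest mean for each of them. The lowest mean was on D-camphor at 41 mg/g for TRINITY_DN37624_c1_g1 and TRINITY_DN25053_c1_g1, on EO at 10 mg/g for TRINITY_DN25342_c0_g1 and in untreated larvae for TRINITY_DN42857_c1_g1. All 16 neighbouring pairs of diets in these orders, the closest ones by construction, differed by less than the larger of their SDs. Of all 40 pairs of diets over the 4 unigenes, 6 had means further apart than the larger SD and 3 had ranges that did not overlap. Even with ranges apart, an exact permutation test of 3 against 3 libraries gives no p under 0.1. The share of such pairs over all tested unigenes is not given here, so these counts are a description. All 3 pairs with ranges apart were for TRINITY_DN25053_c1_g1, with D-camphor at 41 mg/g (203 to 239 TPM) below untreated larvae, below D-camphor at 17 mg/g (322 to 496 TPM) and below EO at 30 mg/g (337 to 680 TPM). The gap in means exceeded the larger SD against the lower D-camphor dose, 171 against 90.1 TPM, and against EO at 30 mg/g, 267 against 174 TPM. Between the D-camphor doses, where 0% of all tested unigenes were called, the limma adjusted p was 0.611, and the difference between EO at 30 mg/g and the higher D-camphor dose was not tested. Between diets lay 5.98% of the variation in log2(TPM + 1) for TRINITY_DN37624_c1_g1, 16.3% for TRINITY_DN42857_c1_g1, 26.5% for TRINITY_DN25342_c0_g1 and 38.2% for TRINITY_DN25053_c1_g1, beside a median of 31.6% over all tested unigenes. Within diets the SD of log2(TPM + 1) was 0.57, 1.03, 0.70 and 0.58 in the same order of unigenes, beside a median of 0.26 over all tested unigenes and 0.31 over the 438 tested unigenes at least as abundant as the lowest of the 4.

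Between the doses of each additive none of the arylphorins was called, and the signs of several differences turned with single libraries. The log2 difference of EO at 30 from 10 mg/g was 0.25 for TRINITY_DN37624_c1_g1, 0.96 for TRINITY_DN25342_c0_g1, 0.92 for TRINITY_DN42857_c1_g1 and 0.60 for TRINITY_DN25053_c1_g1, a median of 0.76 beside 0.06 over all tested unigenes. For D-camphor at 41 from 17 mg/g it was -0.25, -0.14, -0.18 and -0.79, a median of -0.22 beside -0.07. The adjusted p by limma was 0.999 for each member on EO and at least 0.611 on D-camphor. The difference between the dose steps was largest for TRINITY_DN25053_c1_g1, at 1.39 log2 units (95% interval 0.06 to 2.73), with an adjusted p by limma of 0.411 and an unadjusted p in that limma fit across all genes of 0.0423. Since the 4 unigenes varied together, their shared signs are not 4 separate observations. Without EO 10 mg/g replicate 1, TRINITY_DN37624_c1_g1 and TRINITY_DN42857_c1_g1 had EO dose steps of -0.35 and -0.027. The D-camphor dose steps of TRINITY_DN25342_c0_g1 and TRINITY_DN42857_c1_g1 turned to 0.32 and 0.26 once replicate 2 at 41 mg/g was left out. Without both of these libraries and EO 30 mg/g replicate 1, the difference between the dose steps was -0.11, -0.035 and -0.13 for TRINITY_DN37624_c1_g1, TRINITY_DN25342_c0_g1 and TRINITY_DN42857_c1_g1, and 0.78 for TRINITY_DN25053_c1_g1. For the last it was 0.83 without EO 10 mg/g replicate 1 alone.

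**Figure D2:**
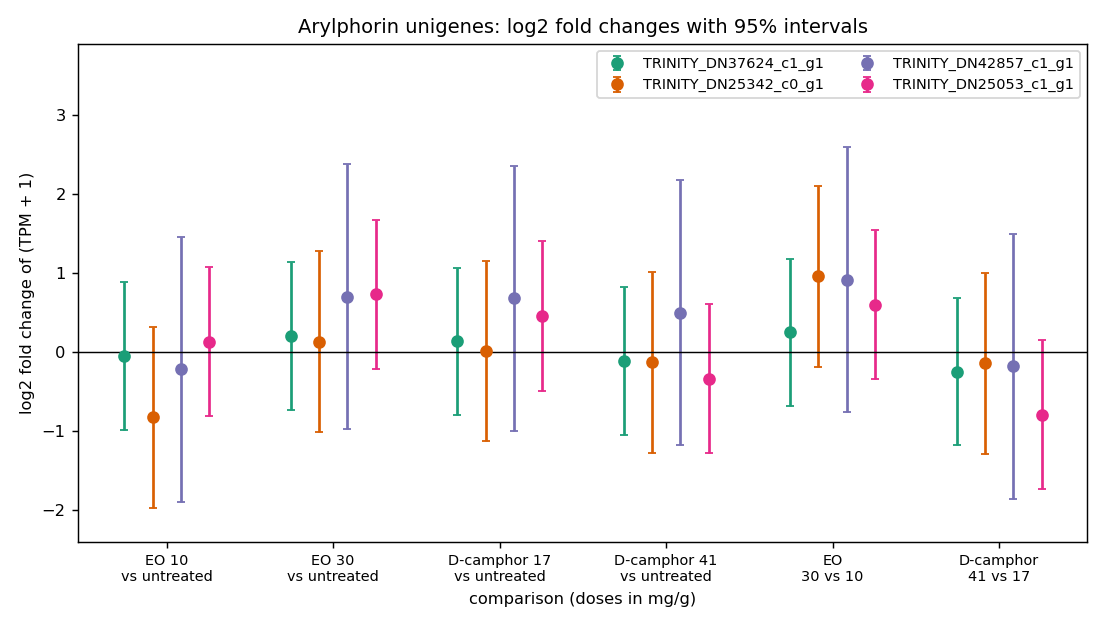
Log2 fold change of (TPM + 1) (vertical axis) of the 4 arylphorin unigenes in 6 comparisons (horizontal axis), with points for limma's estimates from all 15 libraries and bars for 95% intervals. All 24 intervals include 0.

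The 4 arylphorins varied together from library to library. EO 10 mg/g replicate 1 was the lowest of all 15 libraries for each of the 4, and EO 30 mg/g replicate 3 was the highest for 3 of them. Summed, they made up 0.130% of all TPM in EO 10 mg/g replicate 1, 0.688% in EO 10 mg/g replicate 2 and 0.721% in EO 30 mg/g replicate 3, against 0.307% to 0.446% in untreated larvae. In 3 more diets the 4 arylphorins shared a lowest or highest library: replicate 2 was lowest for 4 of 4 both at the higher EO dose and at the higher D-camphor dose, while the highest for 4 of 4 was replicate 2 at 17 mg/g of D-camphor and replicate 3 at 41 mg/g. In untreated larvae they shared neither, the highest being replicate 1 for 3 of 4. The library with the lowest sum, EO 10 mg/g replicate 1, had the highest cuticle protein sum, 93015 TPM. EO 30 mg/g replicate 1, with 58035 TPM of cuticle proteins, had 0.449% arylphorin, and D-camphor 41 mg/g replicate 2, with 57290 TPM, had 0.257%. The part of the moulting or cuticle state of the larvae in the arylphorin levels was not tested.

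Over the 15 libraries the 6 pairs of arylphorins had Pearson correlations of log2(TPM + 1) between 0.67 and 0.86 (permutation test with 100000 resamples, two-sided, adjusted p between 0.00012 and 0.00597 over the 6 pairs). Spearman's rho lay between 0.58 and 0.84 (permutation adjusted p between 0.00072 and 0.0265). Without the 2 libraries farthest from the median of the first unigene of the pair, r fell to between 0.35 and 0.76 over 13 libraries. For TRINITY_DN37624_c1_g1 with TRINITY_DN25053_c1_g1 it was 0.76 (permutation adjusted p = 0.0161 over the 6 pairs), and for TRINITY_DN25342_c0_g1 with TRINITY_DN25053_c1_g1 it was 0.35 (permutation adjusted p = 0.239). The other 4 pairs kept r of 0.53 to 0.59, with an adjusted permutation p between 0.0723 and 0.0782. Thus 5 of the 6 pairs did not pass the threshold over 13 libraries. The libraries left out include EO 10 mg/g replicate 1 for every pair. Leaving out the farthest libraries lowers both their number and the range of levels. The higher p therefore cannot show whether these relations rest on the libraries left out. The deviations from the diet means, which hold no difference between diets, correlated at 0.80 to 0.94 over the 6 pairs. These values are over all 15 libraries, EO 10 mg/g replicate 1 included, and were not computed without the farthest libraries.

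The proportions among the arylphorins varied less than their levels for some pairs. TRINITY_DN37624_c1_g1 was the highest of the 4 in 15 of 15 libraries, and TRINITY_DN25342_c0_g1 came second in 11 and TRINITY_DN42857_c1_g1 in the other 4. The level of TRINITY_DN37624_c1_g1 was 3.73 to 7.81 times that of TRINITY_DN25053_c1_g1, 1.13 to 3.04 times that of TRINITY_DN25342_c0_g1 and 1.24 to 4.88 times that of TRINITY_DN42857_c1_g1. The ratio of TRINITY_DN25342_c0_g1 to TRINITY_DN25053_c1_g1, chosen after its values were seen, was 3.32 to 4.35 in untreated larvae. It was 1.91 to 2.16 on EO at 10 mg/g, 2.03 to 3.31 on EO at 30 mg/g, 2.39 to 3.34 on D-camphor at 17 mg/g and 2.61 to 6.17 on D-camphor at 41 mg/g. Both EO doses therefore lay below all untreated libraries, with an exact permutation p = 0.1 for each, the smallest that 3 against 3 libraries can give. Of 24 such tests over 6 ratios and 4 diets, 4 reached this p and 0 had an adjusted p under 0.05 (0.514 for those 4). The 4 unigenes are similar in description, so reads could be split between them where their sequences match.

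The unigenes whose pattern was most like that of TRINITY_DN37624_c1_g1 were abundant ones without a named function. The 3 with the highest correlation over the 15 libraries were TRINITY_DN38255_c0_g1 (r = 0.98, mean 2824 TPM) and TRINITY_DN37834_c0_g1 (r = 0.92, mean 2122 TPM), both described as hypothetical protein YQE_07508 of the bark beetle Dendroctonus ponderosae, and TRINITY_DN38315_c0_g1 (r = 0.98, mean 1351 TPM), described as uncharacterized protein LOC115884226 of Sitophilus oryzae. TRINITY_DN38255_c0_g1 had a level of 1.37 to 1.80 times that of TRINITY_DN37624_c1_g1 in all 15 libraries. For TRINITY_DN38315_c0_g1 it was 0.629 to 0.855 times and for TRINITY_DN37834_c0_g1 0.945 to 1.59 times. All 3 were picked by their r, so narrow ranges follow in part from that choice. Looking up these descriptions after the values were seen gave 18 unigenes, 12 of them YQE_07508 and 6 LOC115884226, of which 17 were tested. In 14 of the 17, r with TRINITY_DN37624_c1_g1 was over 0.7, between 0.75 and 0.98, a level of likeness reached by 142 tested unigenes in all, the arylphorin itself included. The 3 unigenes above are among these 14 and were picked for their high r, so the count was in part fixed by that choice. The same 14 were lowest in EO 10 mg/g replicate 1. That was also the lowest library of TRINITY_DN37624_c1_g1, so this is not separate from the high r.

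**Figure D3:**
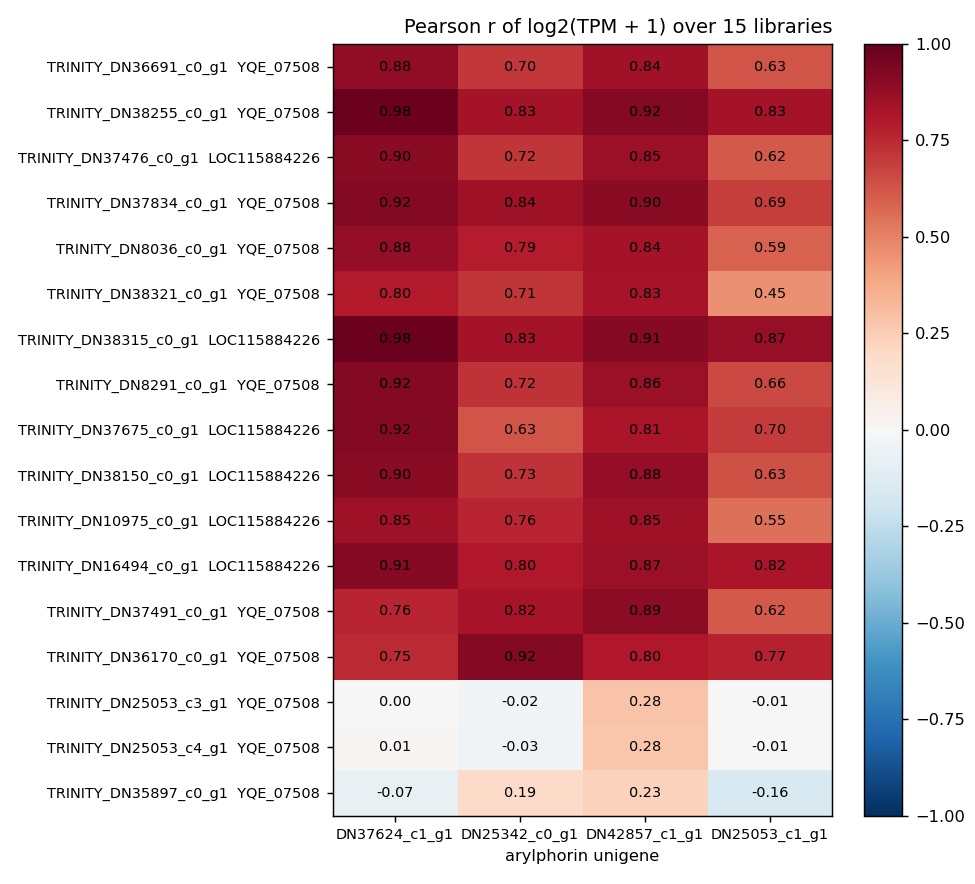
Pearson r of log2(TPM + 1) over 15 libraries between each of the 17 tested unigenes described as YQE_07508 or LOC115884226 (rows, by falling mean level) and each of the 4 arylphorins (columns). The upper 14 rows have r of at least 0.75 with TRINITY_DN37624_c1_g1 and the lower 3 rows lie between -0.07 and 0.01.

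Together the 17 unigenes held 0.750% of all TPM in EO 10 mg/g replicate 1 and 3.77% in EO 10 mg/g replicate 2, and 1.63% to 2.59% in untreated larvae. None of them was called in any of the 9 comparisons by limma, and 1 had an unadjusted p under 0.05, TRINITY_DN36170_c0_g1, between the EO doses (log2 difference 1.43, limma adjusted p = 0.969) and in the difference between the dose steps (2.06, limma adjusted p = 0.343). A pair of them, TRINITY_DN25053_c3_g1 and TRINITY_DN25053_c4_g1, share the first part of their identifier with the arylphorin TRINITY_DN25053_c1_g1, which in this form of assembly names marks reads grouped before assembly. Their levels did not follow it, with r = -0.01 for each.

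**Figure D4:**
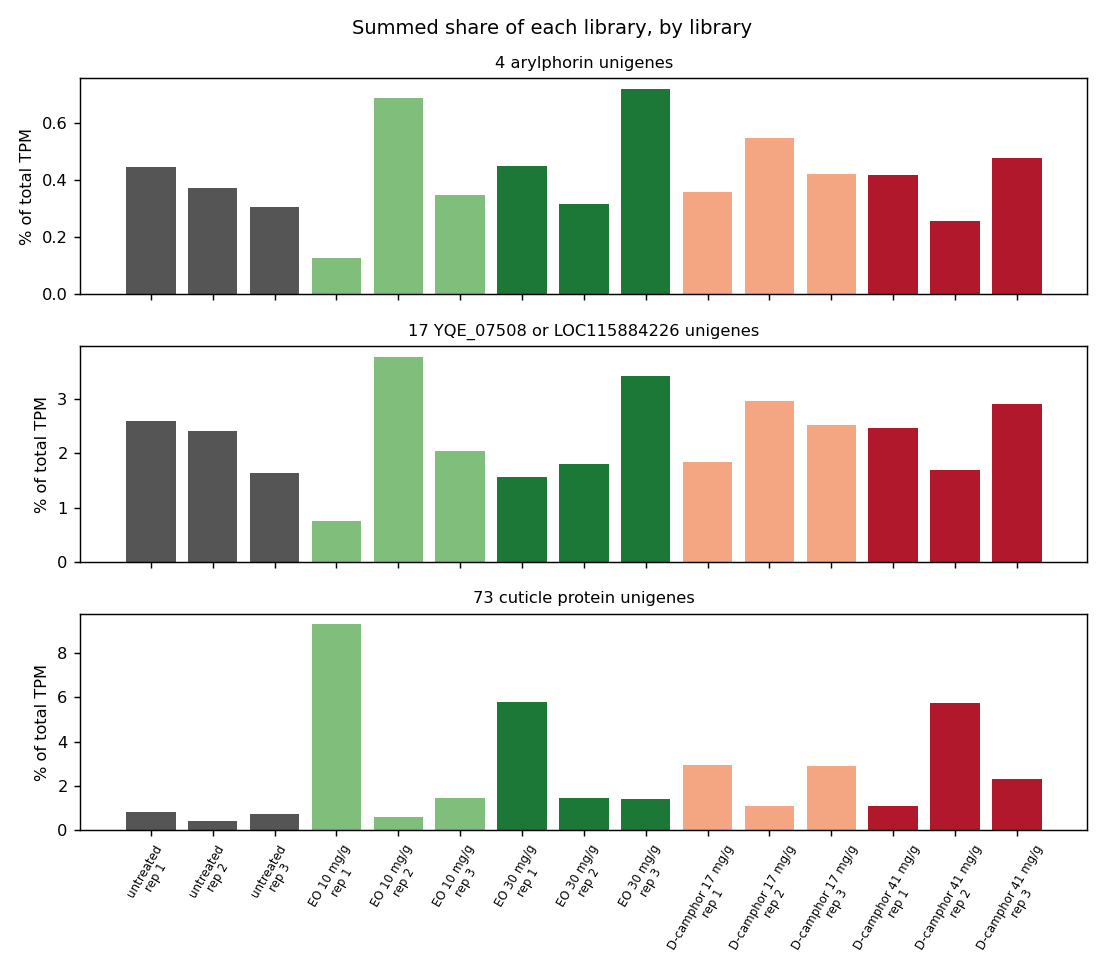
Share of all TPM (vertical axes, percent) held by the 4 arylphorins, by the 17 unigenes described as YQE_07508 or LOC115884226 and by the 73 cuticle protein unigenes in each of the 15 libraries (horizontal axis), coloured by diet. EO 10 mg/g replicate 1 has the lowest bar in the upper and middle panels, 0.130% and 0.750%, and the highest in the lower one.

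The other arylphorin members were at trace levels. TRINITY_DN1998_c1_g1, arylphorin-like from Sitophilus oryzae, lay between 0.42 and 1.93 TPM, highest in D-camphor 17 mg/g replicate 3. TRINITY_DN8966_c0_g1, AgSP-1 arylphorin of Anthonomus grandis, lay between 0 and 0.58 TPM and was listed at 0 in 3 libraries. Its untreated values were 0.1, 0.1 and 0 TPM. All libraries on EO at 30 mg/g (0.58, 0.47 and 0.12) and on D-camphor at 17 mg/g (0.28, 0.27 and 0.48) lay above these. On EO the nearest values were 0.12 and 0.1 TPM, close to 0. The share of all unigenes lying apart in this way is not given here, so this is a description. In a fit without the filter on low values, its limma adjusted p on EO at 30 mg/g was 0.688, and 0 of the 10 members were called in any comparison.

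All vitellogenin rows were listed above 0 in a single library, EO 30 mg/g replicate 1. There the 4 members stood at 2.91 TPM (TRINITY_DN35296_c0_g4), 2.69 TPM (TRINITY_DN35296_c0_g2), 2.13 TPM (TRINITY_DN35296_c0_g3) and 1.96 TPM (TRINITY_DN13307_c0_g1), and each was listed at 0 in the other 14 libraries. The 2 rows just below the limit of 10, TRINITY_DN18774_c0_g1 and TRINITY_DN13307_c0_g2, showed the same, at 1.71 and 1.66 TPM, and their means of 0.114 and 0.111 TPM stood just under the 0.131 TPM of the last member kept. Their descriptions name no insect: they come from a mite (Dinothrombium tinctorium), spiders (Stegodyphus mimosarum, Parasteatoda tepidariorum and Pardosa pseudoannulata), the horseshoe crab Limulus polyphemus and the pearl oyster Pinctada margaritifera. The label of a weevil yolk protein or lipid carrier is therefore not borne out for these rows, and they are called here by their description.

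EO 30 mg/g replicate 1 held 52 unigenes listed above 0 in no other library, against 9 to 28 in each of the other 14. Of its 52, 24 were described, 10 of them from chelicerates (spiders, scorpions, mites and horseshoe crabs, by a list of genera written after the values were seen), against 0 or 1 in each other library. The 52 include the 6 vitellogenin rows above, which, apart from the pearl oyster one, are described from chelicerates. The count of 10 is therefore not separate from those rows. The 3 tested unigenes most like TRINITY_DN35296_c0_g4 were also near 0 elsewhere, so their correlation reflects 1 library. TRINITY_DN2105_c0_g3 (r = 0.99) stood at 45.5 TPM in EO 30 mg/g replicate 1 and at most 0.5 TPM in the others, TRINITY_DN8046_c0_g2 (r = 0.98) at 63.6 and at most 0.93, and TRINITY_DN651_c0_g1 (r = 0.96) at 77.0 and at most 2.87. They are described from the annelid Capitella teleta, the nematode Trichinella patagoniensis and the shrimp Penaeus vannamei. Which organism these transcripts came from was not tested.

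Genes that act around storage proteins and lipid carriers were followed by lists of words in the descriptions, and 0 of their tested unigenes were called by limma in any of the 9 comparisons, with at most 3 of a list at an unadjusted p under 0.05 in any one. Of uptake receptors, 6 unigenes matched and 1 was tested, TRINITY_DN4257_c0_g2, described as low-density lipoprotein receptor-related protein 6, at 0.76 to 1.84 TPM. The putative vitellogenin receptor, TRINITY_DN25397_c1_g2, the endocytic receptor for yolk precursors, lay between 0.14 and 0.9 TPM and was not tested. The hemocyanin family relatives of the arylphorins were both tested. Phenoloxidase 2 (TRINITY_DN8664_c0_g1), from the enzyme family that starts melanin formation, stood at 190 ± 48.6 TPM in untreated larvae and 131 ± 16.5 on EO at 30 mg/g, and phenoloxidase 1-like (TRINITY_DN7223_c0_g1) at 96.9 ± 33.3 and 64.8 ± 14.2 (SD, n = 3), with a limma adjusted p of at least 0.577 for both.

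For lipid transfer, lipid droplets and lipid mobilisation, 7 of 21 unigenes were tested. The most abundant was TRINITY_DN20463_c0_g1, a lipid storage droplets surface-binding protein 1-like unigene, from the perilipin family that coats lipid droplets. Its means were 117 ± 29.1 TPM in untreated larvae, 95.9 ± 31.9 and 132 ± 8.01 on EO at 10 and 30 mg/g, and 148 ± 16 and 93.6 ± 23.8 on D-camphor at 17 and 41 mg/g. The next, TRINITY_DN7251_c1_g1, a fatty acid-binding protein, stood at 50.3 ± 7.34, 47.8 ± 3.42, 58.4 ± 6.76, 55.6 ± 1.29 and 42.2 ± 3.79 TPM in the same order. For both, the EO dose step was above 0 and the D-camphor dose step below 0, a pattern shown by 3 of the 7. In the other lists 8 of 17 haemolymph and fat body unigenes, 4 of 7 hormone and nutrient signals and 0 of 2 phenoloxidases showed it. So did 10 of the 17 unigenes described as YQE_07508 or LOC115884226, and the 1 uptake receptor did not. The share over all tested unigenes is not given here, so the count is a description. The difference between the dose steps was 1.19 log2 units (SE 0.35, limma adjusted p = 0.242) for TRINITY_DN20463_c0_g1 and 0.67 (SE 0.18, limma adjusted p = 0.214) for TRINITY_DN7251_c1_g1, neither of them called, while the median over the 7 was 0.08, beside 0.12 over all tested unigenes. Against untreated larvae the median log2 fold change of the 7 was -0.30 and -0.28 at the lower and higher EO dose, and -0.08 and -0.24 at those of D-camphor, beside -0.12, -0.06, 0.03 and -0.04 over all tested unigenes.

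Other proteins of haemolymph and fat body gave 17 tested unigenes of 21. The most abundant were a protein yellow-like unigene (TRINITY_DN36873_c0_g1), from a family with roles in pigmentation, at 65.2 to 1741 TPM, and a subunit of the iron store ferritin (TRINITY_DN361_c4_g3), at 480 to 805 TPM. The smallest adjusted p of the list against untreated larvae was for an apolipoprotein D-like unigene (TRINITY_DN705_c0_g1, mean 112 TPM), a lipocalin and so a carrier of small lipids, named after its values were seen. On D-camphor at 41 mg/g its log2 fold change was -1.57 (95% interval -2.43 to -0.71, limma adjusted p = 0.302). Hormone and nutrient signals gave 7 tested unigenes of 16, all at low levels. The highest were an insulin-like growth factor-binding protein complex acid labile subunit (TRINITY_DN2748_c0_g1), at 2.77 to 9.4 TPM, and a subunit of the nutrient-sensing target of rapamycin complex, lst8 (TRINITY_DN7423_c0_g1), at 3.94 to 5.78 TPM.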

How the data were processed

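Per the labels' protocols, total RNA from whole bodies was extracted with TRIzol and made into libraries with NEBNext Ultra reagents. The authors deposited TPM values with 2 decimals for 34486 unigenes, of which 18488 are described. Aligner, assembler, counting and strand setting: not given in the sources used here. Each column header was tied to the sample whose title shares its letter and replicate, and 0 columns were left over. Levels were set to log2(TPM + 1), with a minimum mean of 1 TPM, and limma 3.58.1 (R 4.3.3) fitted 1 mean per diet over the 15 libraries with a variance trend, adjusting over 12510 unigenes at a threshold of 0.05. The method was tested on simulated data. Members, lists and comparisons were chosen with earlier results of these data known. Named unigenes are the members, the next rows, the 3 most alike per class and, per list, called unigenes or else the 2 most abundant; exceptions are marked. Pairs of libraries with identical values numbered 0. No sequence of the members is held in the files used here.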

Additional observations from a re-analysis of the deposited data

How the results depend on the processing

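Under 23 other settings, 0 arylphorins were called in all 205 counts, and the lowest adjusted p was 0.181 by limma (TRINITY_DN25053_c1_g1, between the D-camphor doses, fitting only the groups compared). Of 732 fold changes, 689 kept their sign and 43 changed it, for 18 of 32 results, and the cause was not tested. With median-of-ratios scaling, TRINITY_DN37624_c1_g1 on EO at 10 mg/g was 0.13 and TRINITY_DN25342_c0_g1 on D-camphor at 17 mg/g was -0.023 (log2). With array quality weights these were 0.094 and -0.052, and TRINITY_DN42857_c1_g1 on EO at 10 mg/g was 0.054. Without the 3 libraries apart on the first principal component, on EO at 10 mg/g TRINITY_DN37624_c1_g1 was 0.55 and TRINITY_DN42857_c1_g1 0.73, TRINITY_DN25342_c0_g1 was -0.034 on EO at 30 mg/g and 0.33 on D-camphor at 41 mg/g, the EO dose step of TRINITY_DN37624_c1_g1 was -0.26, the D-camphor step was 0.32 for TRINITY_DN25342_c0_g1 and 0.26 for TRINITY_DN42857_c1_g1, and the difference of steps was -0.11, -0.035 and -0.13 for TRINITY_DN37624_c1_g1, TRINITY_DN25342_c0_g1 and TRINITY_DN42857_c1_g1.

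Leaving out 1 library at a time turned the sign of 16 of the 32 fold changes and kept it for the other 16, whose values still moved, as for TRINITY_DN42857_c1_g1 on EO at 30 mg/g (0.17 to 1.07). The ranges across 0 were as follows. On EO at 10 mg/g they were -0.51 to 0.55 for TRINITY_DN37624_c1_g1, -1.15 to 0.73 for TRINITY_DN42857_c1_g1 and -0.37 to 0.70 for TRINITY_DN25053_c1_g1, the upper ends without replicate 1 and the lower without replicate 2 of that diet. On EO at 30 mg/g they were -0.0497 to 0.36 for TRINITY_DN37624_c1_g1 and -0.11 to 0.54 for TRINITY_DN25342_c0_g1. On D-camphor they were -0.052 to 0.27 and -0.19 to 0.23 at 17 mg/g, and -0.30 to 0.016 and -0.41 to 0.33 at 41 mg/g, for TRINITY_DN37624_c1_g1 and TRINITY_DN25342_c0_g1. For the mean of the treated diets they were -0.14 to 0.19 and -0.40 to 0.018 for the same unigenes. The EO step ran from -0.35 to 0.71 for TRINITY_DN37624_c1_g1 and from -0.027 to 1.85 for TRINITY_DN42857_c1_g1, the D-camphor step from -0.42 to 0.32 for TRINITY_DN25342_c0_g1 and from -0.46 to 0.26 for TRINITY_DN42857_c1_g1, and the difference of steps from -0.10 to 0.96 for TRINITY_DN37624_c1_g1. Counts over all unigenes also moved, for example from 23 to between 8 and 55 on EO at 30 mg/g and from 0 to between 0 and 46 between the D-camphor doses. The same 10 members were kept when ranked by median or after scaling.

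With the replicate block, 0 arylphorins were called in each of 9 comparisons, and calls over all unigenes went from 23 to 12 on EO at 30 mg/g and from 5 to 1 on D-camphor at 17 mg/g. Deviations of same-numbered libraries correlated at a median of 0.0242 over 30 pairs, and 6 of 15 libraries correlated best with their own number, so the numbers were not taken as a pairing. With 3 libraries a diet, the intervals above set what could be seen. TPM keeps no read depth, so the part of counting error in them is unknown.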

Other observations

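The unigenes TRINITY_DN25053_c3_g1 and TRINITY_DN25053_c4_g1, both described as YQE_07508, were nearly absent in some libraries and abundant in others of the same diet, and followed each other closely (r = 0.99 over 15 libraries). TRINITY_DN25053_c3_g1 stood at 2.84, 489 and 249 TPM in untreated larvae, at 445, 1818 and 1.37 on EO at 10 mg/g and at 76.2, 574 and 361 on EO at 30 mg/g. On D-camphor it stood at 9.06, 1019 and 236 TPM at 17 mg/g and at 345, 383 and 463 at 41 mg/g. TRINITY_DN25053_c4_g1 was listed at 0 in replicate 1 of the untreated larvae, in replicate 3 on EO at 10 mg/g and in replicate 1 on 17 mg/g of D-camphor, the same libraries in which TRINITY_DN25053_c3_g1 was lowest. A further unigene of that description, TRINITY_DN35897_c0_g1, stood at 257 TPM in D-camphor 41 mg/g replicate 1 and at no more than 0.88 TPM in any other library.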
